A study of Mus musculus with 9 samples.

Results

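The 10 collagen genes described here encode the 3 common chains of collagen VI (Col6a1, Col6a2 and Col6a3), 4 fibril-associated collagens with interrupted triple helices, or FACITs (Col12a1, Col14a1, Col16a1 and Col22a1), the network-forming chain Col8a1, and the multiplexins Col15a1 and Col18a1. They were chosen by collagen type, with earlier results of these data known, and other chains of the same subfamilies are in a separate list below. They are 10 of the 39179 genes listed for each library. RNA was sequenced from single capillaries with their surrounding cells, cut by laser microdissection (LMD) from the ossification front (OF) of the femur. The paper collected many such pieces from each sample, so each library is a pool of pieces. The groups were 5 juvenile mice aged 4 weeks and 4 adult mice aged 12 weeks, with 1 library per mouse. All 9 mice carried the reporter transgene Tg(TIE2GFP)287Sato/J, in which the Tie2 promoter drives GFP in endothelial cells, and the labels name no treatment. The reporter guided the cutting, but each piece also held the cells around the vessel, so the libraries are mixtures, in which fewer cells of a type and less RNA per cell cannot be told apart. No label gives a batch.

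Collagen VI chains assemble into a heterotrimer of α1, α2 and α3 chains and then into beaded microfilaments that surround cells and link them to the matrix. FACITs do not form fibrils of their own and instead sit on the surface of fibrils built by collagens such as collagen I, where they connect fibrils to each other and to other matrix molecules. Multiplexins are proteoglycans of the basement membrane zone, and the C-terminal end of collagen XVIII is released as endostatin, an inhibitor of angiogenesis. In bone, type I collagen from osteoblasts makes up most of the organic matrix, and the collagens described here are its minor companions.

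Library totals ranged from 4856833 to 8077362 counts, so that 3 counts, taken as the floor of a library, corresponded to 0.371 to 0.618 CPM, a unit that scales each count by its library's sum. These limits cover counting error only and leave out the duplication of molecules by PCR. Every one of the 8 endothelial and 8 osteoblast marker genes had counts, and none of the endothelial genes was called different between the ages by edgeR, DESeq2 or limma voom, nor reached an unadjusted p under 0.05 in any of them. Juvenile replicates 4 and 5 stood apart from the other 7 libraries, with 1099 and 978 counts on 4 Y-linked genes and 11 and 1 counts of Xist, whereas the other 7 libraries had at least 2965 counts of Xist and at most 5 Y-linked counts. Xist and Y-linked counts differ between female and male mice, but the labels give no sex per library, and the paper analysed both sexes together. The libraries with many Y-linked counts were all juvenile, so age and this pattern are partly confounded. For the collagens and the lists of related genes, calls and ratios that changed when juvenile replicates 4 and 5 were left out are given with and without them. Calls of other cell type markers and of the closest genes are given from all 9 libraries only. Over all tested genes, calls fell from 520 to 73 without these 2 libraries. Adult libraries held more erythroid and neutrophil RNA, with all 6 erythroid and all 6 neutrophil markers higher in adults in edgeR. The summed level of the erythroid markers was 391–2470 CPM in juveniles and 4748–40419 CPM in adults. That of the neutrophil markers was 1.58–57.0 CPM in juveniles, 93.4 CPM in adult replicate 2 and 3506–4035 CPM in the other adults, and limma voom called 1 of 6. Of 4 tested B cell markers edgeR called none and DESeq2 called 2, and their sums overlapped (0–21.8 CPM in juveniles, 1.20–116 CPM in adults).

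The comparison of juvenile with adult OF asked which of these collagens changed between active bone growth and maturity. Of the 10 genes, 9 had enough counts to be tested, and Col14a1 did not. Col22a1 and Col18a1 were called, at a Benjamini-Hochberg adjusted p under 0.05 in the quasi-likelihood test of edgeR over 13418 genes, and both were higher in juveniles. Among all tested genes, 520 were called (3.88%), of which 267 were higher in juveniles (1.99%) and 253 in adults (1.89%). Col22a1 and Col18a1 were also the 2 tested genes of the family whose ages did not overlap in normalized counts (counts scaled by TMM to a common library size), which held for 9.15% of all tested genes. The median log2 fold change of the 9 genes, juvenile over adult, was 0.14, and that of all tested genes was -0.01. DESeq2 with default settings called the same pair, and 9.47% of its 15726 genes.

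**Figure D1:**
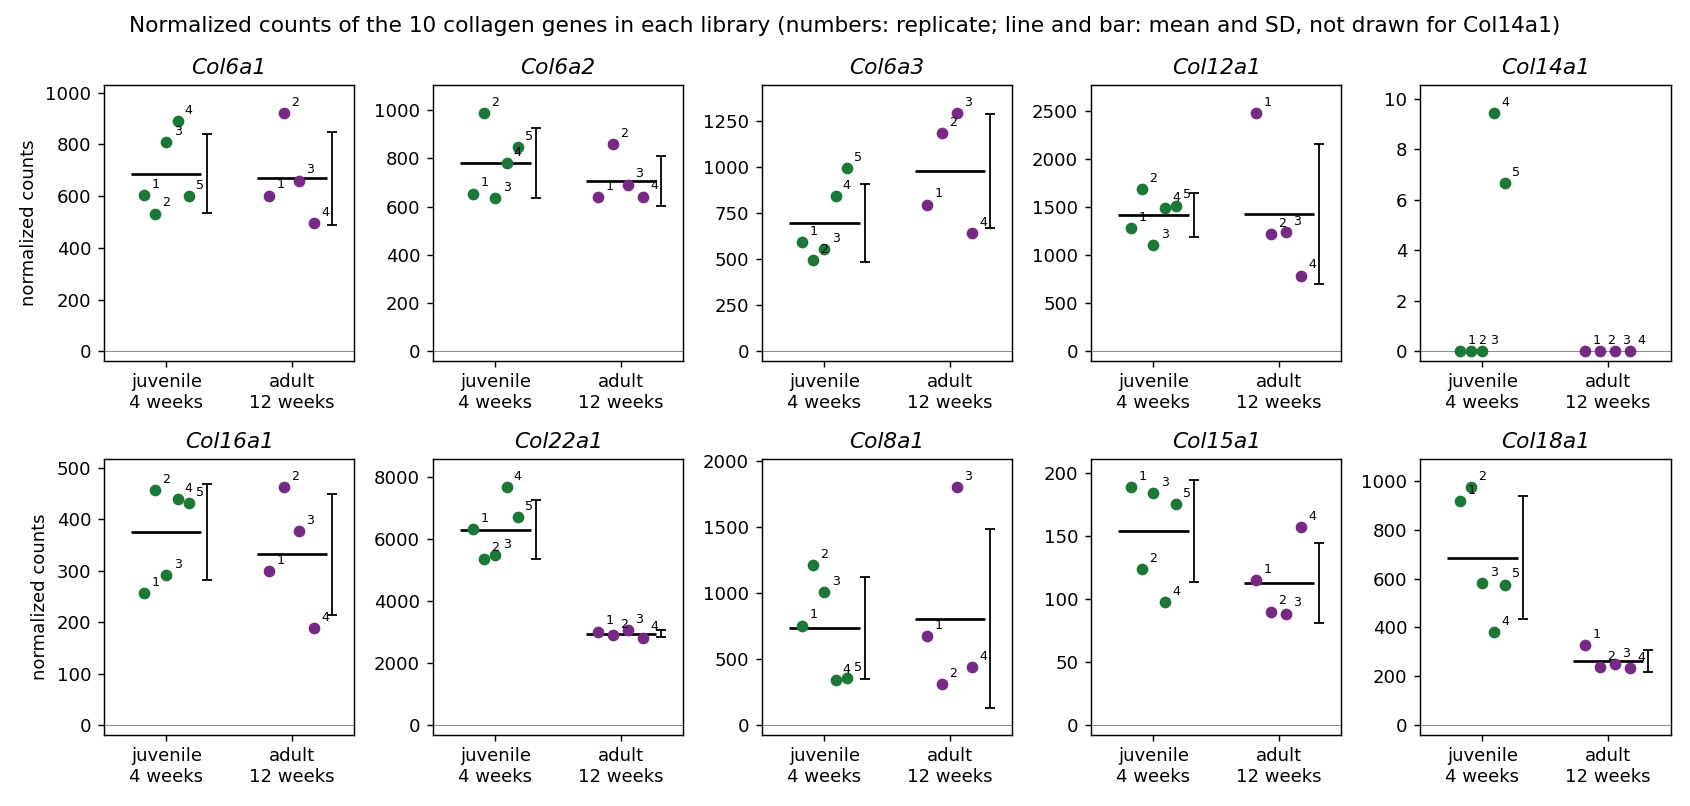
Normalized counts (vertical axes, linear and starting at about 0) of each collagen gene in the 5 juvenile and 4 adult libraries, with points numbered by replicate and the mean with its SD beside them. Juvenile and adult points are apart for Col22a1 and Col18a1 and intermingle for the other tested genes, and Col14a1 has counts in juvenile replicates 4 and 5 and in no other library.

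Col22a1 encodes the α1 chain of collagen XXII, a FACIT best known from the junction of muscle and tendon and other tissue borders. The gene (ENSMUSG00000079022) lies on the minus strand of chromosome 15 from 71795795 to 72034227 of GRCm38. Normalized counts of Col22a1 were 6326, 5369, 5472, 7670 and 6695 in juvenile replicates 1 to 5. In adult replicates 1 to 4 they were 3015, 2890, 3063 and 2821. Every juvenile library was thus higher than every adult library, and the adults were close to each other, with a coefficient of variation of 3.78% against 15.0% in juveniles. Juveniles had a mean of 6307 ± 947 (SD, n = 5) and adults of 2947 ± 111 (SD, n = 4), a 2.14-fold difference (log2 fold change 1.10, SE 0.15, edgeR adjusted p = 0.00245). Col22a1 passed the threshold under all 20 alternatives in processing and choice of libraries, with log2 fold changes of 0.96 to 1.15 and adjusted p of 5.46e-12 to 0.0441. Without juvenile replicates 4 and 5, the difference was 0.96 (edgeR adjusted p = 0.0359). An antisense gene, Gm16308, shares 16 bases (0.174%) of the exons of Col22a1.

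The skeletal muscle markers, listed because collagen XXII is known from muscle attachments, had low summed levels of 0.526–4.32 CPM in juveniles and 0–21.2 CPM in adults, where adult replicates 1 and 4 were the highest, at 14.6 and 21.2 CPM. Of the 6 markers 1 was tested and not called by edgeR, DESeq2 or limma voom, nor did it reach an unadjusted p under 0.05, and Myh4 had no count in any library. Among the 4 tested tendon and periosteal fibroblast markers, Scx was higher in juveniles (log2 fold change 2.42, edgeR adjusted p = 0.00754). Postn was higher in adults (-2.87, edgeR adjusted p = 0.0136). Mean normalized counts in juveniles and adults were 262 and 49.0 for Scx and 145 and 1063 for Postn. The summed levels of this list, to which Postn added most in adults, were 79.2–144 CPM in juveniles and 164–429 CPM in adults. Of the 8 osteoblast markers, 3 (Dmp1, Ibsp and Sp7) were higher in juveniles, as Col22a1 was, and none in adults. The summed level of the 8 was 22148–34325 CPM in juveniles and 10845–18765 CPM in adults. Ibsp was the largest part of this sum, with means of 135570 and 55252 normalized counts. Spp1, the next largest in juveniles, was not called (log2 fold change 0.17, edgeR adjusted p = 0.856). Of the 6 pericyte and stroma markers, Lepr was higher in juveniles (log2 fold change 1.84, edgeR adjusted p = 0.00285) and Cxcl12 in adults (-2.59, edgeR adjusted p = 0.00283), with summed levels of 555–701 CPM in juveniles and 525–1660 CPM in adults. Of the 6 osteoclast markers, 1 was higher in adults. These marker values stand beside both Col22a1 and Col18a1, and their part in the differences of these genes was not tested.

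Col18a1 encodes the α1 chain of collagen XVIII, a heparan sulphate proteoglycan of basement membranes and the source of endostatin. It lies on the minus strand of chromosome 10 from 77052178 to 77166548 (GRCm38, ENSMUSG00000001435). Normalized counts were 916, 974, 582, 381 and 575 in juvenile replicates 1 to 5 and 327, 238, 249 and 232 in adult replicates 1 to 4. The ages did not overlap, although juvenile replicate 4 came close to adult replicate 1. Juveniles averaged 685 ± 251 (SD, n = 5) and adults 262 ± 44.3 (SD, n = 4), a 2.62-fold difference (log2 fold change 1.39, SE 0.29, edgeR adjusted p = 0.0186). This call was lost in 4 of 20 alternatives, in which the direction remained. The adjusted p was 0.0815 with limma voom, 0.0764 with the replicate number as a block in edgeR, 0.0503 without adult replicate 3 and 0.0535 without adult replicate 4 in edgeR. Without juvenile replicates 4 and 5, the log2 fold change was 1.66 (edgeR adjusted p = 0.0359), and over all alternatives it ranged from 1.23 to 1.66. Endothelial markers, whose cells make a basement membrane, had overlapping summed levels of 499.6–815 CPM in juveniles and 660–793 CPM in adults.

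Transcription of Col18a1 can start at separate promoters, and RefSeq lists 2 starts that are 52.8 kb apart. The 250 bases before each start are shown because the gene was called and the deposited counts, given per gene, do not separate transcripts from the 2 starts. Sequences are from RefSeq on GRCm38.p6, read 5′ to 3′ on the strand of the gene, and capitals mark CCAAT or GGGCGG on either strand (ATTGG or CCGCCC when reversed).
Col18a1, upstream start, chr10:77166531-77166780, minus strand: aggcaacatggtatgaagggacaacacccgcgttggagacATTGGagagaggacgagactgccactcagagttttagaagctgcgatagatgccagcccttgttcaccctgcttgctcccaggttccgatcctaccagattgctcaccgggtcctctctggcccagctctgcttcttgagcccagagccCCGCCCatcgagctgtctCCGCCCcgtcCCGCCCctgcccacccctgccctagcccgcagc
Col18a1, downstream start, chr10:77113706-77113955, minus strand: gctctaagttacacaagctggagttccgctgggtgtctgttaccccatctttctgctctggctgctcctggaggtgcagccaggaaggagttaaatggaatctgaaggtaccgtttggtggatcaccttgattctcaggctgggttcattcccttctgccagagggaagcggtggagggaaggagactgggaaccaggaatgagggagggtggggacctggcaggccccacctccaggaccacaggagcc
The window of the upstream start held 1 CCAAT and 3 GGGCGG, with a GC content of 62.0%, and that of the downstream start held none of these and no TATAAA, with a GC content of 57.6%. Among the 32851 windows of this length in the table, 33.8% held CCAAT, 32.7% GGGCGG and 12.4% TATAAA on either strand, and the median GC content was 52.4%. RefSeq windows were matched for 7 of the 10 genes, and Col12a1, Col14a1 and Col22a1 had no entry.

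Col15a1 encodes the other multiplexin, collagen XV, which is found where basement membranes meet the interstitial matrix, also around capillaries. It is located on the plus strand of chromosome 4 from 47208161 to 47313167 (GRCm38, ENSMUSG00000028339). Its normalized counts were 189, 124, 184, 97.8 and 176 in juvenile replicates 1 to 5 and 115, 90.1, 88.5 and 157 in adult replicates 1 to 4. Both ages covered much the same range. The log2 fold change was 0.45 with a 95% confidence interval of -0.37 to 1.27 (edgeR adjusted p = 0.630), an interval wide enough to hold the change of Col22a1 but not that of Col18a1. The ratio of Col15a1 to Col18a1 within a library, which does not depend on scaling between libraries, compared these multiplexins directly. On the log2 scale it was -2.27, -2.97, -1.66, -1.95 and -1.71 in juveniles and -1.50, -1.40, -1.49 and -0.56 in adults. All juvenile ratios were thus below all adult ratios, and the mean difference was -0.88 (exact permutation test, two-sided, p = 0.0238, and 0.0595 after Benjamini-Hochberg adjustment over 10 ratios), which did not pass the threshold. The 10 include both ratios with Col14a1, which are not read below, and the adjusted p depends on how many ratios are counted. In the 7 libraries left without juvenile replicates 4 and 5, the difference was -1.06 (exact permutation p = 0.0286, the smallest these libraries can give, adjusted 0.0476). That adjusted p depends on other ratios tied at the same smallest p. The ratio of Col14a1 to Col1a1 is among them, although Col14a1 had 0 counts in all 7 libraries, so the lower adjusted p is not read as a gain. Without adult replicate 4, which had the highest ratio, it was -0.65 (exact permutation p = 0.0714, adjusted 0.179). Relative to Cdh5, which encodes the endothelial cadherin VE-cadherin, neither multiplexin passed the threshold: the log2 difference was 0.86 for Col18a1 (exact permutation p = 0.0952, adjusted 0.172, and 0.53 without adult replicate 2) and -0.02 for Col15a1 (exact permutation p = 0.984, adjusted 0.984). Cdh5 itself had 668 ± 102 normalized counts in juveniles (SD, n = 5) and 522 ± 251 in adults (SD, n = 4), a log2 difference of 0.36 that was not called (edgeR adjusted p = 0.604).

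**Figure D2:**
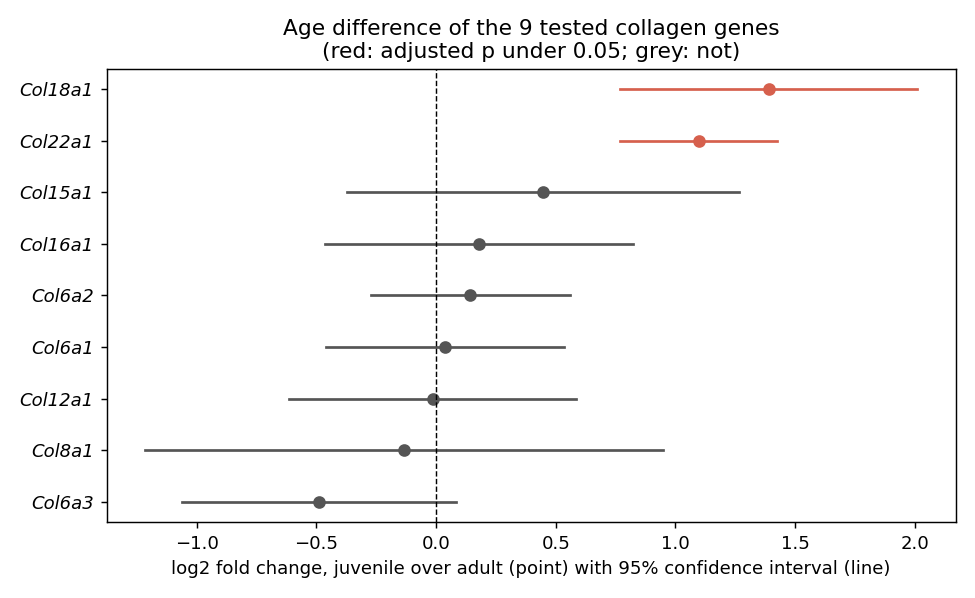
Log2 fold changes, juvenile over adult (horizontal axis), of the 9 tested collagen genes as points with 95% confidence intervals as lines, red where the adjusted p was under 0.05. The intervals of Col18a1 (0.77 to 2.01) and Col22a1 (0.77 to 1.42) lie to the right of 0, and the other 7 include 0.

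The 3 collagen VI chains were each expressed at both ages, and none was called, by edgeR, DESeq2 or limma voom, or reached an unadjusted p under 0.05 in edgeR. Col6a1 and Col6a2 are neighbours on chromosome 10, both on the minus strand, with Col6a2 at 76595762–76623630 and Col6a1 at 76708792–76726168 (GRCm38), 85.2 kb apart. Col6a1 also lies 326.0 kb from Col18a1. Col6a3, which encodes the long α3 chain whose C-terminal fragment is known as endotrophin, lies on chromosome 1 at 90765923–90843971 on the minus strand. Normalized counts of Col6a1 were 604, 533, 808, 890 and 601 in juveniles and 602, 919, 660 and 495 in adults, with a log2 fold change of 0.04 (95% confidence interval -0.46 to 0.54, edgeR adjusted p = 0.966). Those of Col6a2 were 653, 985, 634, 779 and 847 in juveniles and 638, 857, 691 and 641 in adults, with a log2 fold change of 0.14 (95% confidence interval -0.27 to 0.56, edgeR adjusted p = 0.795). For both chains the ages overlapped widely, and the intervals left room for changes of up to about 0.56 in favour of juveniles. The direction of Col6a1 turned in 7 of 20 alternatives.

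Col6a3 had 594, 494, 556, 844 and 995 normalized counts in juveniles and 796, 1182, 1291 and 642 in adults. The highest adult libraries exceeded all juveniles, while juvenile replicates 4 and 5 were within the range of the adults. The log2 fold change was -0.49 (95% confidence interval -1.06 to 0.08, edgeR adjusted p = 0.378), and it was negative under all 20 alternatives, from -0.84 to -0.34, without a call. In proportion to Col6a1, Col6a3 had log2 ratios of -0.02, -0.11, -0.54, -0.08 and 0.73 in juveniles and 0.40, 0.36, 0.97 and 0.37 in adults. Juvenile replicate 5 lay among the adults, and the other juveniles were below all of them. The mean difference was -0.53 (exact permutation p = 0.103, adjusted 0.172). It was -0.75 in the 7 libraries left without juvenile replicates 4 and 5 (exact permutation p = 0.0286, the smallest that 3 against 4 libraries can give, adjusted 0.0476). Here too the adjusted p depends on the tie with Col14a1 to Col1a1 and is not read as a gain. Without adult replicate 3, which had the highest ratio, the difference was -0.38 (exact permutation p = 0.125, adjusted 0.208). The ratio of Col6a1 to Col6a2 differed by -0.09 on the log2 scale (exact permutation p = 0.770, adjusted 0.855).

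The 250 bases before the starts of the 3 collagen VI genes are printed to set side by side the neighbours Col6a1 and Col6a2, which encode partner chains, and Col6a3 on another chromosome. They are from RefSeq on GRCm38.p6, with the same motifs in capitals.
Col6a1, chr10:76726045-76726294, minus strand: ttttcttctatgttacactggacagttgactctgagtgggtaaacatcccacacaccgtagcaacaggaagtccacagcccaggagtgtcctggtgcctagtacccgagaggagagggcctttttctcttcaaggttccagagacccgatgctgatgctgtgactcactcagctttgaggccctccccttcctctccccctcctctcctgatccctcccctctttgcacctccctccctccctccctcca
Col6a2, chr10:76623405-76623654, minus strand: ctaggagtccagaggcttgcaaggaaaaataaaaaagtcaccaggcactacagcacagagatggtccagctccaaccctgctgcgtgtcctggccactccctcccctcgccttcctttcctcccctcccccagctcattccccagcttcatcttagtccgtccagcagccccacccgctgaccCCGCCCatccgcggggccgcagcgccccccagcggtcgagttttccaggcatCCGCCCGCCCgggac
Col6a3, chr1:90843972-90844221, minus strand: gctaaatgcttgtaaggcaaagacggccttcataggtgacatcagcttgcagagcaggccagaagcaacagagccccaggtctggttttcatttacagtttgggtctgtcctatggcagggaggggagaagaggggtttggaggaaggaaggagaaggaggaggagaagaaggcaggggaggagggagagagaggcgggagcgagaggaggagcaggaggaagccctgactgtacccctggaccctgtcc
Col6a2 had 3 GGGCGG in this window, of which a pair overlap, and Col6a1 and Col6a3 had none of the 3 motifs. The GC content was 56.0% for Col6a1, 64.4% for Col6a2 and 57.2% for Col6a3. RefSeq lists another start of Col6a2 further upstream, whose overlapping window (76623631–76623880) held 1 GGGCGG. The printed window of Col6a2 lies mostly within the gene as placed above, and that of Col6a1 lies partly within its gene. These matches describe the letters only.

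Col12a1 encodes the α1 chain of collagen XII, a FACIT of dense connective tissues, periosteum and bone (chromosome 9, 79598991–79718831, minus strand, GRCm38). Its normalized counts were 1285, 1683, 1101, 1493 and 1514 in juveniles and 2472, 1216, 1242 and 786 in adults. Adult replicate 1 was the highest and adult replicate 4 the lowest of all 9 libraries, so that the coefficient of variation was 50.8% in adults and 15.9% in juveniles. Nearly equal means were found, at 1415 ± 226 (SD, n = 5) and 1429 ± 726 (SD, n = 4), with a log2 fold change of -0.01 (95% confidence interval -0.61 to 0.59, edgeR adjusted p = 0.990). Without adult replicate 1, it was 0.37 (edgeR adjusted p = 0.397).

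Col16a1 encodes collagen XVI, a minor FACIT that binds integrins (chromosome 4, 130047840–130099283, plus strand, GRCm38). It had 257, 457, 291, 439 and 431 normalized counts in juveniles and 299, 462, 377 and 188 in adults, and the ages overlapped. The log2 fold change was 0.18 (95% confidence interval -0.46 to 0.82, edgeR adjusted p = 0.844). Col14a1 encodes collagen XIV, a FACIT of tendon and skin that is close to collagen XII in structure (chromosome 15, 55307750–55520803, plus strand, GRCm38). It had 8 and 5 raw counts in juvenile replicates 4 and 5 and 0 in the other 7 libraries, where expression was not detectable at this depth. The libraries with these few counts of Col14a1 were those with many Y-linked counts, and the connection was not tested.

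Col8a1 encodes the α1 chain of collagen VIII, a short-chain collagen of hexagonal networks made by endothelial and smooth muscle cells (chromosome 16, 57624258–57754737, minus strand, GRCm38). It varied most among the tested genes of the family. Normalized counts were 754, 1215, 1011, 343 and 358 in juveniles and 677, 311, 1805 and 440 in adults, with coefficients of variation of 52.7% and 84.3%. Juvenile replicates 4 and 5 were the lowest juveniles, and adult replicate 3 was the highest library. The log2 fold change of -0.13 had a 95% confidence interval of -1.22 to 0.95 (edgeR adjusted p = 0.942), and it became 0.61 without adult replicate 3 (edgeR adjusted p = 0.553) and 0.30 without juvenile replicates 4 and 5 (edgeR adjusted p = 0.929).

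To order the genes within an age, counts were divided by the length of the exons of each gene, as CPM per kb of exon. Col22a1 was the highest at both ages, at 103 ± 13.7 in juveniles (SD, n = 5) and 54.1 ± 1.94 in adults (SD, n = 4), and its range did not overlap that of the next gene at either age. Col6a1 followed, with 23.6 ± 5.05 in juveniles and 25.7 ± 6.17 in adults. Col18a1 was the third in juveniles, at 14.8 ± 5.51, and the eighth in adults, at 6.30 ± 1.11. Between Col6a1 and Col16a1 in juveniles, each gene overlapped its neighbours in this order: Col18a1, Col8a1 (14.2 ± 7.57), Col6a2 (14.1 ± 2.46), Col12a1 (14.0 ± 2.03), Col6a3 (8.74 ± 2.58) and Col16a1 (8.34 ± 1.93). The adult order after Col6a1 was Col8a1 (17.3 ± 14.3), Col12a1 (15.9 ± 8.15), Col6a2 (14.3 ± 1.73), Col6a3 (13.7 ± 3.96), Col16a1 (8.24 ± 2.68) and Col18a1, and neighbours overlapped here too. Col15a1 was the ninth at both ages, at 3.67 ± 1.04 and 3.03 ± 0.969, below the range of the gene before it. Ranks depend on the length used: with the longest transcript in place of all exons, 5 of the 10 genes kept their rank at both ages. Col18a1 did not, with rank 5 in juveniles and rank 8 in adults by that length.

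**Figure D3:**
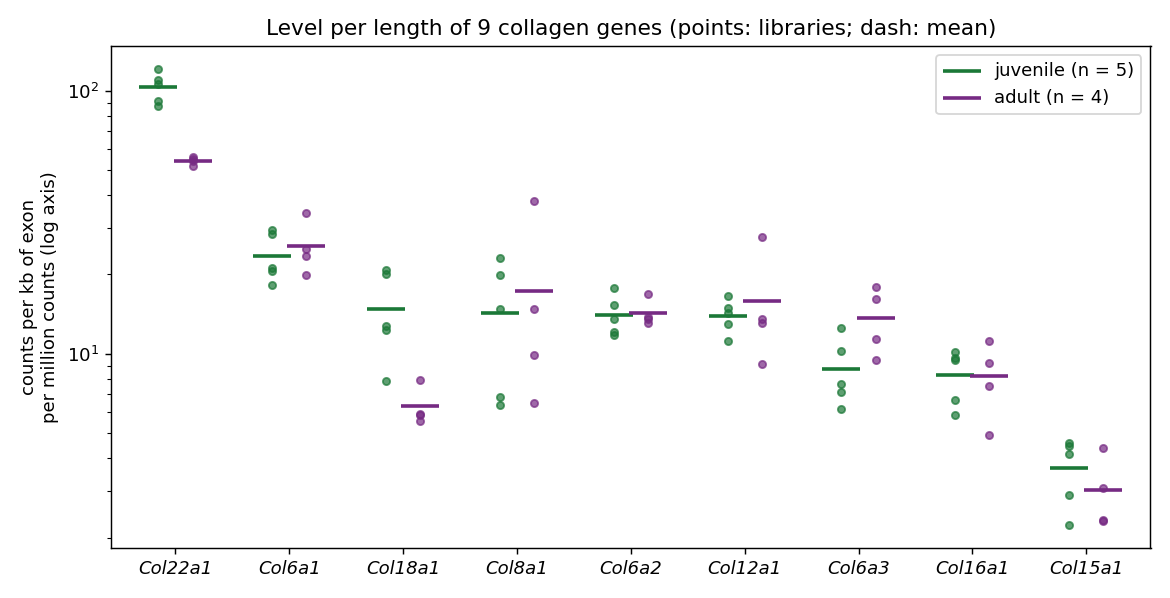
CPM per kb of exon (logarithmic vertical axis) of the 9 collagen genes other than Col14a1, ordered by the juvenile mean, with a point for each library and a dash for the mean of each age. Col22a1 is above all other genes at both ages, at means of 103 and 54.1. By the means at this length, Col18a1 moves from the third place in juveniles, where its neighbours overlap it, to the eighth in adults.

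Per length, Col22a1 made up 50.3% ± 5.22 of the sum of the 10 genes in juveniles (SD, n = 5, range 43.0–56.4%) and 34.6% ± 4.66 in adults (SD, n = 4, range 30.5–41.2%). The 3 collagen VI chains together made up 22.7% ± 2.21 in juveniles (range 20.0–24.8%) and 34.0% ± 6.08 in adults (range 29.0–42.8%). The ages did not overlap in either share, and a lower share of Col22a1 raises the other shares by construction. Col1a1, the main chain of the fibrils to which FACITs attach, was far above all of them, at 10909 ± 1006 in juveniles and 4726 ± 641 in adults on the same scale. It exceeded Col22a1 107 ± 9.23 times per length in juveniles (range 94.8–119) and 87.5 ± 13.4 times in adults (range 73.0–103), and here the ages overlapped.

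Within libraries, Col6a1, Col12a1 and Col16a1 were each lower relative to Col1a1 in juveniles than in adults. The log2 ratio to Col1a1 was -9.46 ± 0.37 against -8.12 ± 0.22 for Col6a1, -8.40 ± 0.19 against -7.12 ± 0.55 for Col12a1 and -10.34 ± 0.36 against -9.18 ± 0.38 for Col16a1 (SD, 5 juveniles and 4 adults). The differences were -1.33, -1.28 and -1.16, the ages did not overlap in any of the 3 ratios, and each had an exact permutation p of 0.00794, the smallest that 5 against 4 libraries can give (adjusted 0.0265). These ratios share their denominator. Col1a1 itself was higher in juveniles by 1.37 on the log2 scale (SE 0.14, edgeR adjusted p = 0.000426), with 475826 ± 48964 normalized counts against 183915 ± 28924, while the log2 fold changes of the numerators were -0.01 to 0.18. Both ratios with Col14a1 rest on 0 counts in 7 libraries and are not read, though they are counted in the adjustment over 10 ratios.

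**Figure D4:**
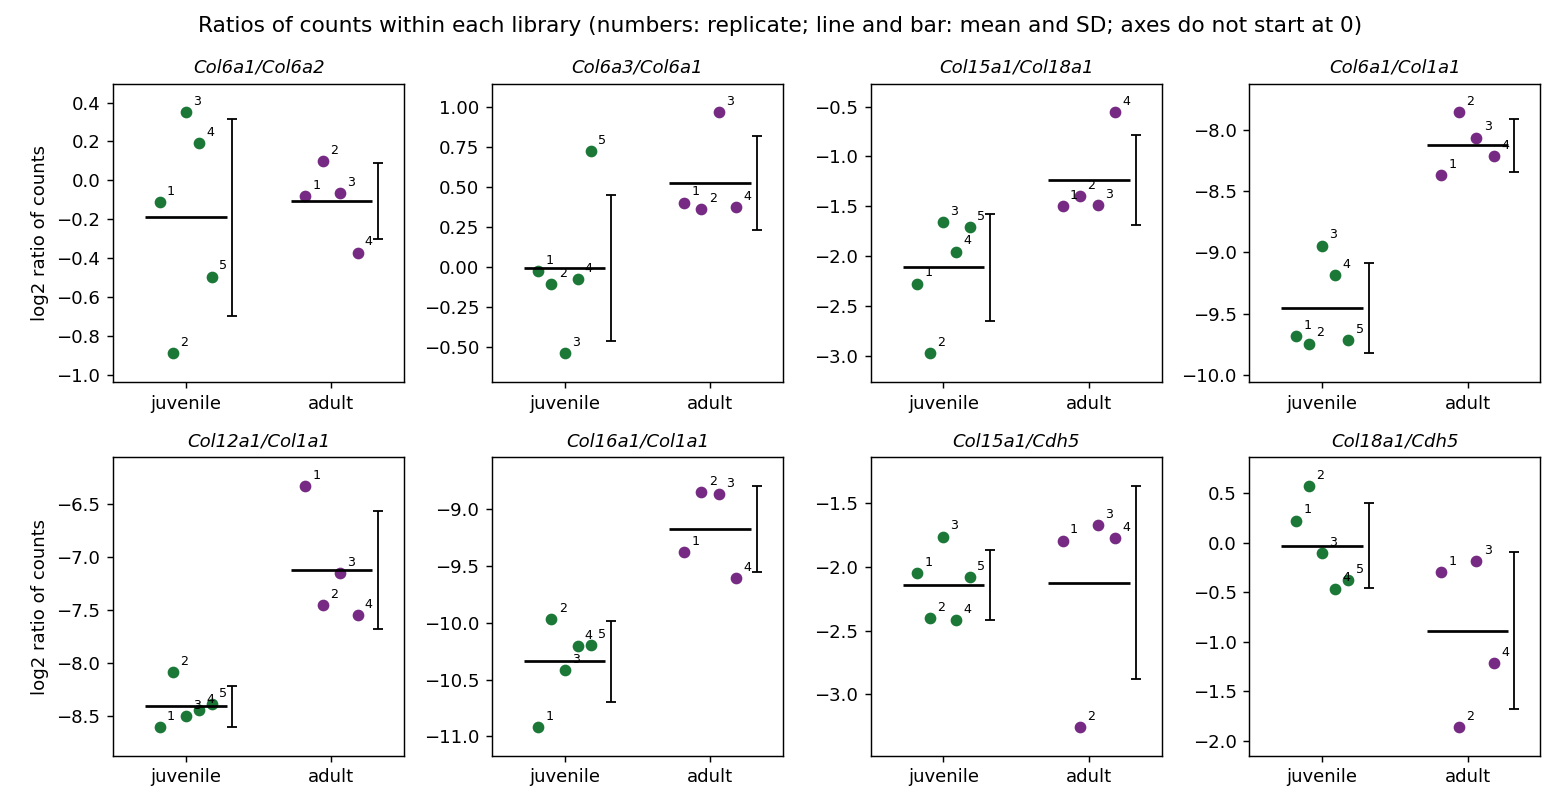
Log2 ratios of counts within each library (vertical axes, not starting at 0) for the 8 ratios without Col14a1, with points numbered by replicate and the mean with its SD. The ratios of Col6a1, Col12a1 and Col16a1 to Col1a1 are apart between the ages, as is Col15a1 to Col18a1, and the ages overlap in the other 4.

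Genes related to these collagens were grouped in 4 lists. Of the other chains of the same subfamilies, 11 had an entry, 5 were tested and none was called by edgeR, DESeq2 or limma voom, with 1 of 5 (Col9a2) at an unadjusted p under 0.05 in edgeR, against 17.3% of all tested genes. Col6a4 had no count in any library, and Col6a5 and Col6a6, whose products can take the place of the α3 chain of collagen VI, had at most 69 and 2 raw counts in a library. The cartilage FACIT chains Col9a1, Col9a2 and Col9a3 had log2 fold changes of -2.59, -2.86 and -2.06 (edgeR adjusted p = 0.291, 0.205 and 0.498). These values rested on adult replicate 2, without which they were -0.92, -0.38 and 1.46 (edgeR adjusted p = 0.785, 0.908 and 0.637). Col10a1, the collagen of hypertrophic chondrocytes and a short-chain relative of Col8a1, had a log2 fold change of 0.40 (edgeR adjusted p = 0.898), which was 2.24 without adult replicate 2. The median of the 5 was the value of Col9a3, -2.06, and 2 of 5 tested chondrocyte markers were higher in adults, with summed levels of 330–944 CPM in juveniles and 620–4595 CPM in adults.

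Among the fibril-forming chains, 7 of 11 tested were called and the median log2 fold change was 0.83. Col1a1, Col1a2, Col5a1, Col5a2, Col11a1 and Col11a2 were higher in juveniles, by 1.37, 1.25, 1.34, 0.91, 0.83 and 0.80, and Col2a1, the fibril collagen of cartilage, was higher in adults, with a log2 fold change of -2.62 (edgeR adjusted p = 0.000426 to 0.0371). The calls of Col1a1, Col1a2 and Col5a1 held in all 20 alternatives, and those of Col5a2, Col2a1, Col11a2 and Col11a1 were lost in 2, 3, 8 and 9. These 4 calls were lost without juvenile replicates 4 and 5, with log2 fold changes of 0.87, -2.33, 0.54 and 0.66 (edgeR adjusted p = 0.103, 0.140, 0.151 and 0.243). With the replicate block in edgeR, the adjusted p was 0.0819 for Col5a2, 0.0708 for Col2a1, 0.144 for Col11a2 and 0.112 for Col11a1. Without adult replicate 2, the log2 fold change of Col2a1 was -1.69 (edgeR adjusted p = 0.00602). The log2 fold change of Col22a1, 1.10, was thus between those of Col5a2 and Col1a2, and these differences between genes were not tested.

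Of 11 tested receptors of collagens, none was called by edgeR, and 3 had an unadjusted p under 0.05. They were Itga10, the α10 integrin subunit (log2 fold change 0.84, edgeR adjusted p = 0.0744), Cspg4, the proteoglycan NG2 that binds collagen VI (0.91, edgeR adjusted p = 0.124), and Ddr2, a receptor tyrosine kinase for fibrillar collagens (0.80, edgeR adjusted p = 0.183). DESeq2 called Itga10 and limma voom called Cspg4. Itga11, the α11 subunit, had a log2 fold change of 0.46 (edgeR adjusted p = 0.431), and the median of the 11 was 0.12.

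Among 9 tested matrix partners, Bgn was higher in juveniles and Tnc in adults, and the median log2 fold change was 0.29. Bgn encodes biglycan, a small proteoglycan that binds collagen VI, and had 9893 ± 1553 normalized counts in juveniles (SD, n = 5) and 5908 ± 1191 in adults (SD, n = 4), with a log2 fold change of 0.74 (edgeR adjusted p = 0.0355). Tnc encodes tenascin-C, a ligand of matrix and cells, and had 4323 ± 718 and 8405 ± 2279 normalized counts, with a log2 fold change of -0.96 (edgeR adjusted p = 0.0168). The call of Bgn was lost in 9 of 20 alternatives and that of Tnc in 4. Neither was called without juvenile replicates 4 and 5, where the edgeR adjusted p was 0.228 for Bgn and 0.148 for Tnc. Lum, which encodes lumican, and Hspg2, which encodes the basement membrane proteoglycan perlecan, had log2 fold changes of 0.91 and 0.85 (edgeR adjusted p = 0.0820 and 0.0815). DESeq2 called both, and limma voom called Lum.

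The genes most like each collagen across the 9 libraries were found by the root mean square (RMS) difference of log2 CPM after centring each gene on its mean, which is a description that age differences and library effects both enter. Col22a1 was followed most closely by Pdgfa (0.096 log2 units), which encodes a platelet-derived growth factor chain, Selenom (0.135) and Gm26636 (0.157). For Col18a1 the closest genes were Nrep (0.281), Serpinh1 (0.309), which encodes the collagen chaperone HSP47, and Smoc2 (0.340). All 6 of these genes were called higher in juveniles by edgeR. The closest genes were Gng5-ps, Cryzl2 and Ythdf1 for Col6a1, Gucy1a1, Gm13436 and Ifngr1 for Col6a2, and Frmd4a, mt-Ts1 and 2610005L07Rik for Col6a3. They were Gas1, Fbxo22 and Cisd2 for Col12a1, Tsg101, Ccser2 and Irs1 for Col16a1, Prpf3, Dctn6 and Sft2d1 for Col8a1, and Ube3c, Rtl8b and Cplane1 for Col15a1. Col8a1 had no close match, at 0.398 log2 units from the nearest gene. None of the 9 tested collagens was among the 3 closest genes of another. The closest pair within the family was Col16a1 and Col6a2, at 0.275 log2 units, while the chromosome neighbours Col6a1 and Col6a2 were 0.357 apart.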

How the data were processed

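RNA of pooled pieces, each a single capillary with surrounding cells cut by LMD from the femur OF, was amplified with the SMART-Seq v4 chemistry and sequenced as paired-end reads. Libraries were grouped by age from the sample titles. The authors deposited 1 table of raw counts per gene and library, made, per the submitters' processing notes, with TopHat2, Bowtie2 and featureCounts on GRCm38. The strand setting and annotation release are not given in the sources used here. Symbols came from GENCODE vM21, in which 96.0% of the genes listed have an entry. No pair of libraries was a copy among 36 pairs compared.

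The juvenile and adult libraries were set against each other in edgeR 4.0.16 (R 4.3.3, filterByExpr with defaults, TMM scaling, quasi-likelihood F test, age as the only term, Benjamini-Hochberg adjustment over all tested genes). Normalized counts are counts divided by the TMM-scaled library size relative to its geometric mean. Ratios of counts, after adding 0.5 to each, were compared by a two-sided exact permutation test over the 126 ways to assign 9 libraries to the ages. For closest patterns, log2 CPM had a prior count of 2. The fit was tested on simulated data. Alternatives used DESeq2 1.42.0, limma 3.58.1 voom, other scalings and filters, thinned counts, a replicate block, a term for the Xist and Y-linked pattern, the 7 libraries in which Xist exceeded the Y-linked counts, a fit without blood genes, and each library left out. The p-values set the age difference against the spread between libraries. With 1 library per mouse, this spread holds differences between mice, in cutting and in amplification, which cannot be told apart.

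All 10 collagen genes are named, as are list genes with an adjusted p under 0.05 or among the 4 smallest p of their list, and the 3 closest genes of each. Other names were chosen after their values were seen. The members and lists were chosen with earlier results of these data known. Figures were drawn with matplotlib 3.10.9.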

Additional observations from a re-analysis of the deposited data

Results flagged for a closer look

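In 3 of 35 groups of libraries examined (each age for the 10 genes and the 8 ratios without Col14a1, leaving out Col14a1 in adults, where every library was at 0), a library was far from the others of its age, where chance alone would set apart about 1.75. Each was an adult library in a ratio, and each gap is given as a share of the range of the group. The log2 ratio of Col6a3 to Col6a1 was 0.97 in adult replicate 3 and 0.36 to 0.40 in the other adults, a gap of 0.935 of the range. The log2 ratio of Col15a1 to Col18a1 was -0.56 in adult replicate 4 and -1.50 to -1.40 in the other adults, a gap of 0.887 of the range. The log2 ratio of Col15a1 to Cdh5 was -3.25 in adult replicate 2 and -1.80 to -1.67 in the other adults, a gap of 0.924 of the range.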

How the results depend on the processing

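The number of genes called across the whole table was 520, and it was 1490 with DESeq2, 89 with the replicate block, 159 with the Xist and Y-linked pattern as a term, 73 in the 7 libraries in which Xist exceeded the Y-linked counts and 262 to 651 with 1 library left out. Of the collagens described here, 2 were called, and 1 with limma voom, 1 with the replicate block and 1 to 2 with 1 library left out, Col18a1 being the call lost. Related genes called numbered 9, and 3 with the block, 4 with the pattern as a term, 3 in the 7 libraries and 5 to 13 with 1 library left out. Same-numbered libraries of the 2 ages did not deviate together (correlations of -0.0318 to 0.0303), so the number was not taken to pair them.

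Uncalled directions turned as follows. Col6a1 had a log2 fold change of -0.046 with the pattern term, -0.043 in the 7 libraries, -0.021 with thinned counts and -0.099 to 0.21 with 1 library left out. Col12a1 had 0.0023 with upper quartile scaling, 0.19 with voom, 0.072 with the block and -0.24 to 0.37 with 1 left out. Col8a1 had 0.038 with voom, 0.20 with the block, 0.30 with the pattern term, 0.30 in the 7 libraries and -0.42 to 0.61 with 1 left out. Leaving out 1 library gave -0.034 to 0.36 for Col16a1, -0.15 to 2.24 for Col10a1 and -2.73 to 1.46 for Col9a3, which had 1.21 with voom and 0.093 with the block.

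For the ratios, the 7 libraries gave -0.75 for Col6a3 to Col6a1, -1.06 for Col15a1 to Col18a1 and 0.052 for Col15a1 to Cdh5. With 1 library left out, the differences were -0.99 to -0.65 for Col15a1 to Col18a1, -0.71 to -0.38 for Col6a3 to Col6a1, 0.53 to 1.09 for Col18a1 to Cdh5, -0.22 to 0.088 for Col6a1 to Col6a2, -0.40 to 0.13 for Col15a1 to Cdh5, -1.46 to -1.24 for Col6a1, -1.42 to -1.02 for Col12a1 and -1.31 to -1.02 for Col16a1 to Col1a1. With the block, the last 3 were -1.27, -1.29 and -1.20. They missed the threshold in each of these designs, where the smallest possible exact p was 0.0179 to 0.0286, or 0.125 with the block, so this says nothing about stability. With the longest transcript as length, 5 of 10 genes kept their ranks. Col14a1 alone among the 10 genes had too few counts to be tested, and Col15a1 had 83 to 200 raw counts per library.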
